A study of Arabidopsis thaliana with 24 samples.

Results

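Leaves labelled as treated with salicylic acid (SA) and taken 0 h later were compared between the 2 times of treatment, ZT24 and ZT36, on 6 of the 24 Affymetrix arrays of the series. The members were chosen by their labels alone: 3 arrays labelled SA, ZT24, 0 h, and 3 labelled SA, ZT36, 0 h. All were true leaves of wild-type Arabidopsis thaliana at an age of 23 days. The plants had grown under a 12 h day length, spent the last 24 h before treatment in constant light, and received 1 mM SA. The labels call the 3 arrays of a group biological replicates and do not say whether plants were pooled. The other arrays used here, 3 in each group, were SA at ZT24 and ZT36 taken 3 h after treatment, and water at ZT24 and ZT36 taken 0 h and 3 h after treatment, from plants of the same genotype, age and light regime.

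Zeitgeber time (ZT) counts hours from lights-on, so in a plant entrained to a 12 h day ZT24 is a subjective dawn and ZT36 a subjective dusk. In constant light the circadian clock keeps running without the signals of dawn and dusk. The plant clock is a loop of repressors: morning genes such as CCA1 and LHY repress evening genes such as TOC1 and GI, which feed back on them, and the loop times the transcription of genes for photosynthesis, starch turnover, cold tolerance and growth. SA is an immune hormone that leads, through NPR1 and TGA factors, to defence gene transcription, and several clock components are known to act on SA synthesis and defence.

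Each probe set was centred on its own median of the 24 arrays, on the log2 scale, and its values therefore describe differences between samples and carry no absolute level. Differences are ZT24 minus ZT36, a positive one being higher at ZT24, and errors are standard errors (SE) from limma with 3 arrays per group. A probe set was called at a Benjamini-Hochberg adjusted p of 0.05 over 22746 probe sets. Gene lists were matched by name, and only 1557 of the 13355 genes with a probe set kept had a name other than a locus code. Counts per list therefore cover matched members only, and an unmatched gene may still have a probe set. The median SE of a difference was 0.106. The SE and p-values measure the spread between these samples within groups of 3 arrays. That spread is pooled over all 8 groups and is not that of the groups compared alone. In whole leaves, fewer cells of a type and less RNA per cell cannot be told apart. The leaf label could not be checked against marker levels, which centring removes.

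The arrays of SA 0 h stood apart from those of water 0 h although both carry the label 0 h. SA and water differed at 3688 probe sets at ZT24 (16.2% of those tested) and at 6603 at ZT36 (29%), while water 3 h and water 0 h differed at 0 and 2 probe sets by limma (0% and 0.00879%, with 728 and 3049 at an unadjusted p under 0.05). Correlation across probe sets was 0.62 to 0.78 between ZT24 arrays of SA 0 h and 0.69 to 0.78 between its ZT36 arrays. Between its ZT24 arrays and its ZT36 arrays it was -0.40 to -0.20, and with the water 0 h arrays of the same time it was 0.29 to 0.47 at ZT24 and 0.0071 to 0.39 at ZT36. The SD of the centred values over probe sets was also lower on SA 0 h arrays. It was 0.29 to 0.36 on the 6 SA 0 h arrays and 0.37 to 0.65 on the other 18. Because each probe set is centred on its median over all arrays, this SD reflects how far an array lies from that median. It does not give the spread of signal on the array. Groups are used as labelled throughout, and what sets these arrays apart was not tested.

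ZT24 and ZT36 differed in SA 0 h leaves at 5563 probe sets, 24.5% of those tested, of which 2234 (9.82%) were higher and 3329 (14.6%) lower at ZT24. Of these, 829 differed by at least 2-fold, 462 higher and 367 lower. The 3 ZT24 arrays did not overlap with the 3 ZT36 arrays at 39.2% of probe sets. Without 1 array at a time, 4325 to 5129 probe sets were called, and 3242 of the calls (58.3%) held without each of the 6 arrays. The differences of single probe sets spanned -6.03 to 6.15, both extremes lying outside the named genes described next.

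The largest falls among named genes, taken from called genes whose groups did not overlap, were several log2 units deep. AT4G16146 stood at -2.90, -2.60 and -2.44 on the ZT24 arrays, against 2.94, 2.90 and 2.90 on the ZT36 arrays. The groups were far apart, with a difference of -5.56 ± 0.15 (adjusted p = 5.6e-16), a 47.3-fold lower signal at ZT24. AT1G07050 was at -1.93, -2.17 and -2.27 at ZT24, against 2.95, 3.1 and 2.77 at ZT36, and differed by -5.07 ± 0.13. COR27, a cold-regulated gene under clock control whose product represses other evening genes, was at -2.36, -2.37 and -2.71 at ZT24, against 1.60, 2.24 and 2.05 at ZT36. No COR27 value at ZT24 came near those at ZT36, and the difference was -4.45 ± 0.22 (adjusted p = 6.1e-12). AT4G33980 fell by 4.16 on the log2 scale, AT1G56300 by 3.19 and AT1G17665 by 3.08. Other large falls were those of AT4G34950 (-3.02), AT5G39410 (-2.92), AT4G30650 (-2.78), AT5G14550 (-2.57), AT5G62360 (-2.51), AT1G48210 (-2.5) and AT1G26665 (-2.47), named here by locus only. For AT4G34950 the lowest ZT24 array, at -2.97, lay well below the others at -1.04 and -0.78, and all 3 were below the ZT36 arrays at 1.42, 1.58 and 1.28.

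Of the genes that were higher at ZT24, the largest rise was that of AT2G41250. It was at 2.34, 2.40 and 2.48 at ZT24, against -1.55, -2.18 and -1.89 at ZT36, a difference of 4.28 ± 0.23 (adjusted p = 2.2e-11) or 19.4-fold. CHIL, which encodes a chalcone isomerase-like protein of flavonoid synthesis, was at 2.49, 2.00 and 1.60 at ZT24, against -0.81, -0.87 and -0.64 at ZT36, and rose by 2.80 ± 0.18. AFR, an F-box protein gene of far-red light signalling, was at 2.01, 1.65 and 1.67 at ZT24, against -0.67, -0.80 and -0.81 at ZT36, and rose by 2.54 ± 0.13. Groups that did not overlap were a condition for naming these rises and the falls above, so their separation is not a finding. TRY, a single-repeat MYB gene that inhibits trichome formation, rose by 2.22 ± 0.17 and THI2.2, a thionin gene, by 2.67 ± 0.39. Rises of genes named by locus included AT1G73480 (3.36), AT4G12980 (3.17), AT5G43150 (3.16), AT1G23390 (2.92), AT1G13650 (2.82), AT1G55960 (2.79), AT4G28290 (2.5) and AT4G27450 (2.47). AT2G38870 was called at 2.70 ± 0.79 (adjusted p = 0.015), and no longer without ZT24 replicate 3 or ZT36 replicate 2 (adjusted p up to 0.084). The AT2G38870 difference itself was 2.21 or more in every alternative. Its SE is pooled over all 8 groups, and its water ZT36 0 h arrays had an SD of 2.44.

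**Figure D1:**
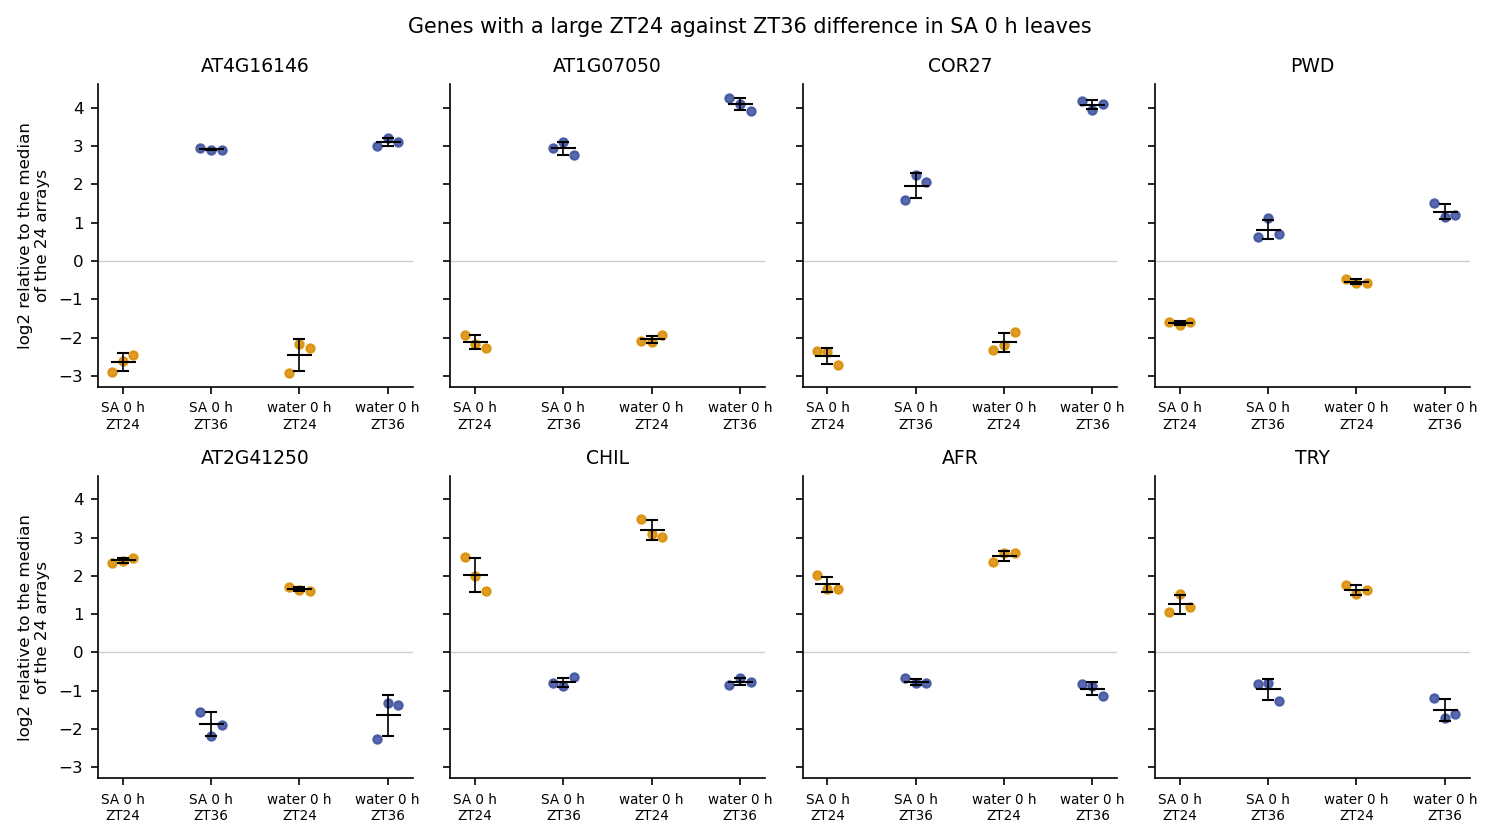
Log2 values relative to the median of the 24 arrays (vertical axis) for 8 genes on the arrays of SA 0 h and water 0 h, ZT24 in orange and ZT36 in blue. Points are arrays and bars the mean with the SD of 3 arrays. COR27 in SA 0 h is at -2.71 to -2.36 at ZT24 and 1.60 to 2.24 at ZT36. The ZT24 and ZT36 arrays of SA 0 h do not overlap in any panel, which was required for the largest rises and falls.

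Of the clock lists, 0 of 17 morning entries and 3 of 24 evening entries matched a named probe set. The morning genes could not be examined here, and may still have probe sets without a name. Of the 3 matched members of the evening list, 2 were lower at ZT24 in SA 0 h leaves. Over all 13355 named genes with 1 probe set each, locus codes counted as names, 8.99% were higher and 13.4% lower. Beside COR27, the list member TIC, a regulator that sustains clock amplitude, fell by 0.75 ± 0.13. TIC was at -0.24, -0.34 and -0.22 at ZT24, against 0.26, 0.70 and 0.50 at ZT36. GI, an evening gene that scaffolds the turnover of TOC1 and promotes flowering, was at -0.23, -0.07 and 0.20 at ZT24, against 0.02, 0.96 and 0.13 at ZT36. The GI groups overlapped, and its difference of -0.41 ± 0.20 was not called (adjusted p = 0.16). Of the light signalling genes, HYH, a bZIP factor that acts with HY5 downstream of photoreceptors, was at -0.08, -0.12 and -0.04 at ZT24, against -0.78, -1.40 and -1.16 at ZT36. HYH groups were apart by 1.03 ± 0.16 (adjusted p = 6.4e-05). FHL, which carries phytochrome A into the nucleus, differed by -0.24 ± 0.25 and was not called.

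Several genes of the light reactions were higher at ZT24. Of 5 photosystem subunit genes, 4 were higher and 0 lower (80% and 0%, beside 8.99% and 13.4% over all named genes). The list median was 0.30, beside 0.022 over all named genes. PSAN of photosystem I was at 0.25, 0.26 and 0.27 at ZT24, against -0.38, -0.33 and -0.17 at ZT36, a difference of 0.56 ± 0.09. PSBY and PSBW of photosystem II rose by 0.55 and 0.30, with no overlap between the groups, and PSAE-1 was called at 0.23, a call lost without ZT36 replicate 1 (0.20, adjusted p = 0.054). Among 3 antenna protein genes, LHCB4.3 rose by 1.58 ± 0.35 and LHCB4.2 by 1.17 ± 0.12, while LHCB4.1 was at 0.16 ± 0.08 and not called. Of 5 genes of carbon fixation and photorespiration, 0 were called by limma (1 at an unadjusted p under 0.05), with a list median of 0.045: RCA, the activase of Rubisco, differed by 0.14 ± 0.08 and SBPASE of the Calvin cycle by 0.18 ± 0.19. In the pigment list of 9 genes, 3 were higher and 1 lower (33.3% and 11.1%, beside the same 8.99% and 13.4%). LYC, a lycopene cyclase of carotenoid synthesis, rose by 0.51 ± 0.10 and CHLM, a methyltransferase of chlorophyll synthesis, by 0.33 ± 0.08. PORB, which makes chlorophyllide in light, was lower, at -0.11, -0.50 and -0.20 at ZT24, against 1.43, 1.63 and 1.68 at ZT36, a gap wider than either group.

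Starch and sugar genes moved in both directions. PWD (AT5G26570), which phosphorylates glucan chains so that starch can be broken down, was at -1.59, -1.67 and -1.59 at ZT24, against 0.64, 1.11 and 0.71 at ZT36, and fell by 2.44 on the log2 scale (SE 0.13, adjusted p = 1.2e-11). DPE1, the plastid disproportionating enzyme that acts on maltotriose, was at -0.22, -0.25 and -0.35 at ZT24, against 0.83, 1.2 and 0.97 at ZT36, and fell by 1.27. SBE2.2, a starch branching enzyme of the synthesis side, rose by 0.68 ± 0.11, and the other 4 of 7 starch genes were not called. The starch shares, 14.3% higher and 28.6% lower, stand beside 8.99% and 13.4% over all named genes. Neither PWD, DPE1 nor SBE2.2 overlapped between the times. All 14 measured genes of the sugar list were SWEET transporters, of which 5 were higher and 1 lower (35.7% and 7.14%). SWEET2 rose by 1.21 ± 0.21, SWEET13 by 1.18 ± 0.23 and SWEET1 by 0.78 ± 0.13, and the number higher was 3 without ZT24 replicate 2. TMT1, a tonoplast sugar importer outside the lists, was at -0.65, -0.85 and -0.78 at ZT24, against 0.83, 0.88 and 0.88 at ZT36. It was among further named genes with tight groups that were picked after their values were seen, as were the serine carboxypeptidase-like gene SCPL49 (-2.41 ± 0.11), the thiamine synthesis gene THIC (-1.88 ± 0.14) and the methionine sulfoxide reductase gene MSRB6 (2.42 ± 0.22).

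Of 10 genes of phenylpropanoid and flavonoid synthesis, 4 were higher at ZT24 and 1 lower (40% and 10%, beside 8.99% and 13.4% over all named genes). UGT78D1, a flavonol rhamnosyltransferase, was at 0.91, 1.47 and 1.08 at ZT24, against -0.09, 0.42 and -0.23 at ZT36, and rose by 1.12 ± 0.23. CCR2, a cinnamoyl-CoA reductase, rose by 0.82 ± 0.15, and ALDH2C4, which makes ferulic and sinapic acids, fell by 0.95. Of 7 glucosinolate genes, 0 were higher and 2 lower (28.6%), both of them transporters: GTR1 fell by 0.82 and GTR2 by 0.34. Without ZT24 replicate 2, 4 of the glucosinolate genes were lower. THI2.2 and JMT, which methylates jasmonic acid (0.97 ± 0.15), were the 2 genes higher among 9 of the jasmonate list (22.2%). MYC3, a transcription factor of jasmonate signalling, was the 1 lower (-0.61 ± 0.15), a share of 11.1% near that over all named genes. Without ZT24 replicate 1 the count higher was 4, and without ZT24 replicate 2 it was 3, with 2 lower. PDF1.2, a defensin gene of the same list, stood at 4.96 on ZT24 replicate 3 and between -0.31 and 0.46 on the other 5 arrays of SA 0 h, and was not called (adjusted p = 0.16). It was called without ZT24 replicate 1 (2.79, adjusted p = 0.032) and with array weights (3.09).

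Of 22 genes of the TBL family, which acetylates wall polysaccharides, 7 were higher and 0 lower. TBL25 was at 0.85, 0.85 and 0.86 at ZT24, against -0.25, -0.32 and 0.03 at ZT36, and rose by 1.03 ± 0.12, while TBL28 rose by 0.96 ± 0.13 and TBL38 by 1.19 ± 0.28. Of 27 expansin and xyloglucan transglycosylase genes, 8 were higher and 1 lower, a count that came to 5 higher without ZT24 replicate 1. XTH32, a xyloglucan transglycosylase, rose by 1.5 ± 0.26, and the expansins EXPA4 and EXPB3 by 1.08 and 0.91. CSLA03, a mannan synthase, rose by 1.16 ± 0.15 and IRX15-L of xylan synthesis by 0.88 ± 0.14, 2 of 3 genes higher among 12 of wall synthesis. Of 24 cytochrome P450 genes, 7 were higher and 0 lower, led by CYP71B26 (2.33 ± 0.18) and CYP78A9 (1.22 ± 0.19). The P450 count was less firm, at 4 without ZT24 replicate 1 and 3 without ZT36 replicate 2. The shares of genes higher at ZT24, 31.8% for TBL, 29.6% for expansins and 29.2% for P450, stand beside 8.99% over all named genes.

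Of 26 redox genes, 6 were higher and 2 lower (23.1% and 7.69%, beside 8.99% and 13.4% over all named genes). TRXF2, a plastid thioredoxin that activates enzymes of carbon fixation in light, was at 0.59, 0.79 and 0.50 at ZT24, against -0.66, -0.80 and -0.71 at ZT36, and rose by 1.35 ± 0.13. The glutathione reductases GR1 and GR rose by 0.90 and 0.84, and VTC4, a phosphatase of ascorbate synthesis, by 0.87. GRXC1, a glutaredoxin, fell by 0.59. Among hormone genes, GID1A, a gibberellin receptor, was at -0.38, -0.51 and -0.51 at ZT24, against 0.67, 0.85 and 0.61 at ZT36, a tight fall of 1.18 (SE 0.08). BIM1, a bHLH factor of brassinosteroid signalling, fell by 1.25, making 2 of 5 genes of that list lower (40%) and 0 higher. In the ethylene list 0 of 3 were called by limma (0 at an unadjusted p under 0.05). In the auxin list of 16 genes 2 were higher, among them the auxin synthesis gene YUC2 (0.41 ± 0.09). That share, 12.5%, was near the 8.99% over all named genes. The auxin count was 1 without ZT24 replicate 1 or ZT36 replicate 2, and 3 without ZT36 replicate 1 or ZT24 replicate 2. Of the membrane trafficking genes, 1 of 20 was higher and 5 were lower (5% and 25%). Among the lower ones were VPS20.1 (-0.64 ± 0.15) and VPS60.2 (-0.36 ± 0.10) of the ESCRT machinery. The number lower was 3 without ZT24 replicate 1 or ZT36 replicate 2, and the number higher was 0 without any array but ZT24 replicate 3.

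Cold-responsive genes that passed the test were all lower at ZT24. COR15B, which encodes a chloroplast cryoprotectant, was at -0.92, -1.56 and -0.88 at ZT24, against 0.88, 2.06 and 1.38 at ZT36, and fell by 2.56 (SE 0.28, adjusted p = 6.5e-07). COR47, a dehydrin, was called at -0.75 ± 0.26 and RD2 at -0.74 ± 0.20. With these, 3 of 8 genes of the abscisic acid and cold list were lower (37.5%, beside 13.4% over all named genes). The calls of COR47 and RD2 depended on single arrays: COR47 was lost without ZT24 replicate 2 (-0.47, adjusted p = 0.20), ZT36 replicate 2 (-0.59, adjusted p = 0.16) or ZT36 replicate 3 (-0.74, adjusted p = 0.09). RD2 was lost without ZT24 replicate 1 (-0.65), ZT24 replicate 2 (-0.64) or ZT36 replicate 2 (-0.65), each with an adjusted p of 0.052 or 0.053. COR15A (-0.24 ± 0.42) and the dehydrin LTI30 (-0.14 ± 0.68) were not called, and their groups overlapped.

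Of the 76 entries in the list of SA synthesis, modification and response, only 8 matched a named gene. Of these 8, 0 were called between the times in SA 0 h leaves by limma (2 at an unadjusted p under 0.05). UGT76B1, which glucosylates SA and N-hydroxypipecolic acid, was at -0.02, 0.28 and 0.52 at ZT24, against -0.19, 0.01 and -0.01 at ZT36 (0.32 ± 0.13, adjusted p = 0.081). It was called after quantile normalization (0.45), with array weights (0.44) and without ZT24 replicate 1 (0.46). GRX480, an SA-induced glutaredoxin that binds TGA factors, was at -0.32, 0.03 and -0.18 at ZT24, against -0.23, -0.09 and -0.13 at ZT36 (-0.01 ± 0.13). The groups of both genes overlapped. The differences of the other 6, SAG101, WRKY53, UGT74F1, UGT76D1, UGT71C3 and BSMT1, lay between -0.38 and 0.36. Among these, SAG101 was called without ZT24 replicate 3 (-0.49) or after quantile normalization (-0.44), and UGT74F1 without ZT24 replicate 2 (0.30). Of 6 WRKY genes 0 were called by limma (0 at an unadjusted p under 0.05). Of 9 receptor and calcium signalling genes 1 was higher and 1 lower (11.1% each, near the 8.99% and 13.4% over all named genes). The number higher was 0 without replicate 1 of ZT24 or of ZT36.

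Few markers of leaf cell types had a named probe set. In the guard cell list, the stomatal lineage genes MUTE (0.30 ± 0.11, adjusted p = 0.048) and FMA (-0.38 ± 0.11, adjusted p = 0.018) were called in opposite directions, and SPCH (0.20) and STOMAGEN (-0.54) were not. MUTE was lost without ZT24 replicate 1 (0.15), ZT36 replicate 1 (0.28) or ZT36 replicate 2 (0.26), and FMA without replicate 2 of ZT24 (-0.26) or of ZT36 (-0.31). The phloem and xylem list had 1 measured gene, SWEET11 (-0.31 ± 0.09), lost without ZT36 replicate 2 (adjusted p = 0.063). The epidermis list had TRY alone, and the root gene PYK10 (0.12) and the pollen genes ANX1 (0.18) and ANX2 (0.06) were not called. The part of cell composition in the differences above was not tested.

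The time difference of SA 0 h leaves was then set beside that of water 0 h leaves, on arrays that the 2 comparisons do not share. In water 0 h, 9311 probe sets (40.9%) differed between the times, and the SD of the log2 difference over all probe sets was 0.459 in SA 0 h and 0.721 in water 0 h. Both comparisons called 3515 probe sets, 2932 with the same sign, which is 52.7% of the SA 0 h calls and 31.5% of the water 0 h calls. The remaining 583 had opposite signs. Across the 22746 probe sets, which are not independent, the log2 differences correlated at r = 0.491 (rho 0.37). The difference between these time differences was itself called at 5949 probe sets (26.2%), 2844 positive and 3105 negative. Of those, 4893 were called in water 0 h: 2384 had the same sign and a smaller size in SA 0 h, 127 the same sign and a larger size, and 2382 the opposite sign. After quantile normalization, of 4626 such probe sets, these counts were 1872, 384 and 2370, and 888 in place of 583 were called in both treatments with opposite signs.

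**Figure D2:**
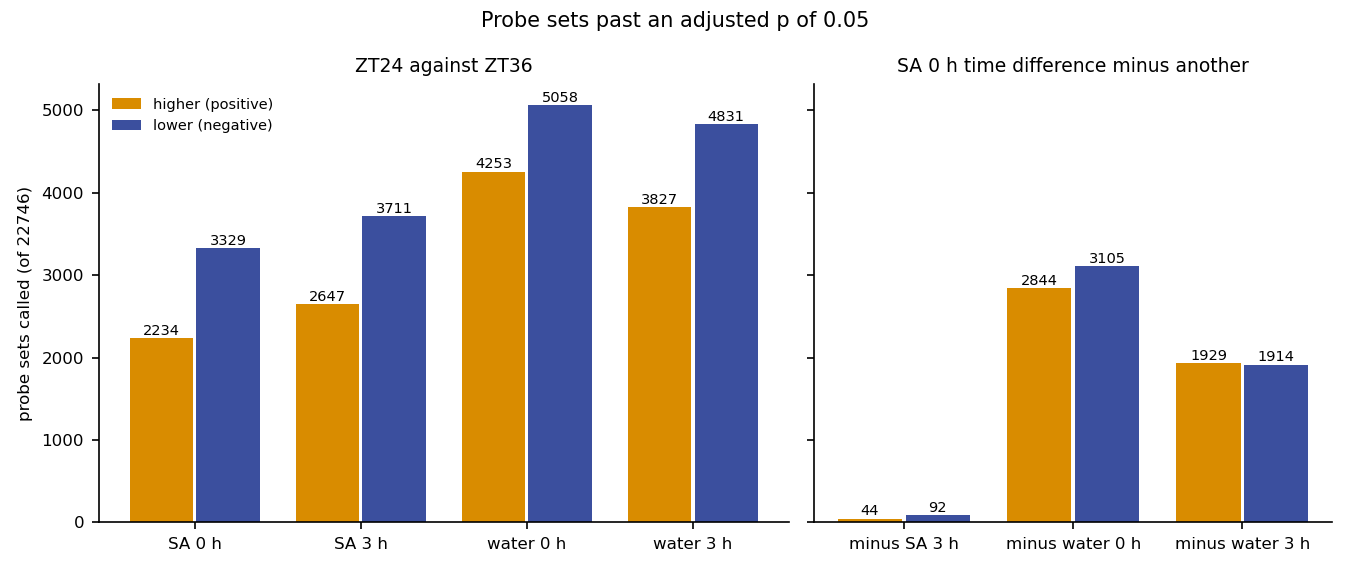
Number of probe sets called (vertical axis, of 22746 tested) between ZT24 and ZT36 in each treatment and time after treatment, and for the SA 0 h time difference minus each other one, higher or positive in orange and lower or negative in blue. SA 0 h has 2234 and 3329 calls, and its time difference differs from that of SA 3 h at 44 and 92 probe sets and from that of water 0 h at 2844 and 3105.

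The 14 largest falls in SA 0 h were all called as lower in water 0 h too. The fall was shallower in SA 0 h, with a called difference, for 7 of them, deeper for 1 and without a called difference for 6. After quantile normalization, which gives every array the same distribution, 1 was shallower, 8 were deeper and 5 had no called difference. This step widens the centred values of the SA 0 h arrays, whose SD was lower, so a shift toward deeper falls is partly built in. The size of these falls relative to water therefore differed with this step. It was applied to the centred values, so it cannot tell array scaling from a true difference in how far arrays lie from the median. AT4G16146 was at -5.56 in both treatments, and deeper in SA 0 h by -2.5 after quantile normalization. COR27 was at -2.32, -2.20 and -1.86 at ZT24 and 4.19, 3.95 and 4.1 at ZT36 in water 0 h, so that at both times the SA arrays lay below the water arrays, narrowly at ZT24 and by more than 1 log2 unit at ZT36. The COR27 difference was smaller in SA 0 h by 1.76 ± 0.31 (adjusted p = 0.00026), that of AT4G33980 by 1.97 ± 0.16, that of AT1G56300 by 3.32 ± 0.33 and that of COR15B by 2.65 ± 0.39. After quantile normalization the calls for COR27 (-0.39, adjusted p = 0.55), AT4G33980 (adjusted p = 0.97) and COR15B (adjusted p = 0.086) were lost, and those for AT1G56300, DPE1 and COR47 held. The differences of COR47 and DPE1 were smaller in SA 0 h by 3.08 and 2.12. The falls of AT1G48210 (difference -1.36 ± 0.22), SCPL49 (-0.79 ± 0.16), THIC (-0.79 ± 0.20) and PWD (-0.61 ± 0.18, adjusted p = 0.015) were deeper in SA 0 h. These calls held after quantile normalization, which adds little, since that step favours deeper falls in SA 0 h.

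On water 0 h arrays GI was at -0.77, -1.15 and -1.22 at ZT24 and at 3.27, 2.85 and 3.04 at ZT36, with no overlap, beside the overlapping values of SA 0 h given above. The GI time difference was smaller in SA 0 h by 3.69 ± 0.29 (adjusted p = 1.6e-08), and at ZT36 the SA arrays were lower than the water arrays by -2.68 ± 0.20. HYH was at 0.48, 0.80 and 0.57 at ZT24 and at -3.35, -3.99 and -4.09 at ZT36 in water 0 h. The HYH time difference was therefore 1.03 in SA 0 h and 4.43 in water 0 h, and their difference was -3.39 ± 0.23 (adjusted p = 2.3e-09). Other genes higher at ZT24 in both treatments with a smaller size in SA 0 h were UGT78D1 (1.12 in SA, 4.04 in water), SWEET2 (1.21, 3.34), XTH32 (1.5, 3.31), LHCB4.3 (1.58, 3.77) and GR1 (0.90, 2.26). LHCB4.2 was larger in SA 0 h, at 1.17 against 0.45 (difference 0.72 ± 0.17, adjusted p = 0.0038).

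The list of branched-chain amino acid breakdown and carbon starvation holds genes used when carbon runs short. Of its 8 measured genes, 1 was higher and 1 lower in SA 0 h (median 0.07), while 8 were lower in water 0 h (median -1.61), and 6 differed between the treatments. Over all named genes 8.99% were higher and 13.4% lower in SA 0 h, 16.7% and 21% in water 0 h, and the treatments differed at 24.1%. MCCA, a subunit of methylcrotonyl-CoA carboxylase in leucine breakdown, was at 0.77, 0.39 and 0.31 at ZT24, against -0.29, 0.21 and 0.09 at ZT36, in SA 0 h, in groups that did not overlap. The MCCA difference of 0.49 ± 0.30 was not called (adjusted p = 0.26), and was called after quantile normalization (0.73, adjusted p = 0.026). In water 0 h it was at -0.09, -0.79 and -0.59 at ZT24, against 3.33, 2.98 and 4.13 at ZT36. IVD, isovaleryl-CoA dehydrogenase of the same pathway, differed by -0.01 in SA 0 h and by -2.85 in water 0 h. AKINBETA1, a subunit of the SnRK1 energy-sensing kinase, had opposite signs: it was higher at ZT24 by 1.03 ± 0.25 in SA 0 h and lower by -2.5 in water 0 h. The 1 gene lower in SA 0 h was ETFALPHA (-0.31), a call lost without ZT24 replicate 1, ZT36 replicate 2 or ZT36 replicate 3 (adjusted p up to 0.12).

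Of 10 autophagy genes 1 was higher and 2 lower at ZT24 in SA 0 h, against 0 higher and 10 lower in water 0 h, and the time difference itself differed at 9. The SA 0 h shares, 10% and 20%, stand beside 8.99% and 13.4% over all named genes. ATG8E, which encodes a ubiquitin-like protein conjugated to the autophagosome membrane, was at 0.11, 1.00 and 0.44 at ZT24, against -0.85, -1.12 and -0.65 at ZT36, in SA 0 h. On water 0 h arrays ATG8E had the opposite order, at -0.35, -0.71 and -0.52 at ZT24 and 0.55, 0.88 and 1.28 at ZT36, and the difference of 1.39 in SA 0 h minus -1.42 in water 0 h came to 2.81 ± 0.33 (adjusted p = 2.8e-06). ATG8D, another ATG8 paralogue, was the exception, at -1.51 in SA 0 h and -1.29 in water 0 h, with no call for the difference. Without ZT24 replicate 1, 2 autophagy genes were higher and 1 lower in SA 0 h. ATG8B was called at -0.50 in SA 0 h, lost without ZT24 replicate 1 (-0.33), ZT36 replicate 2 (-0.43) or ZT36 replicate 3 (-0.45). Probe sets of closely related ATG8 genes may share signal.

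**Figure D3:**
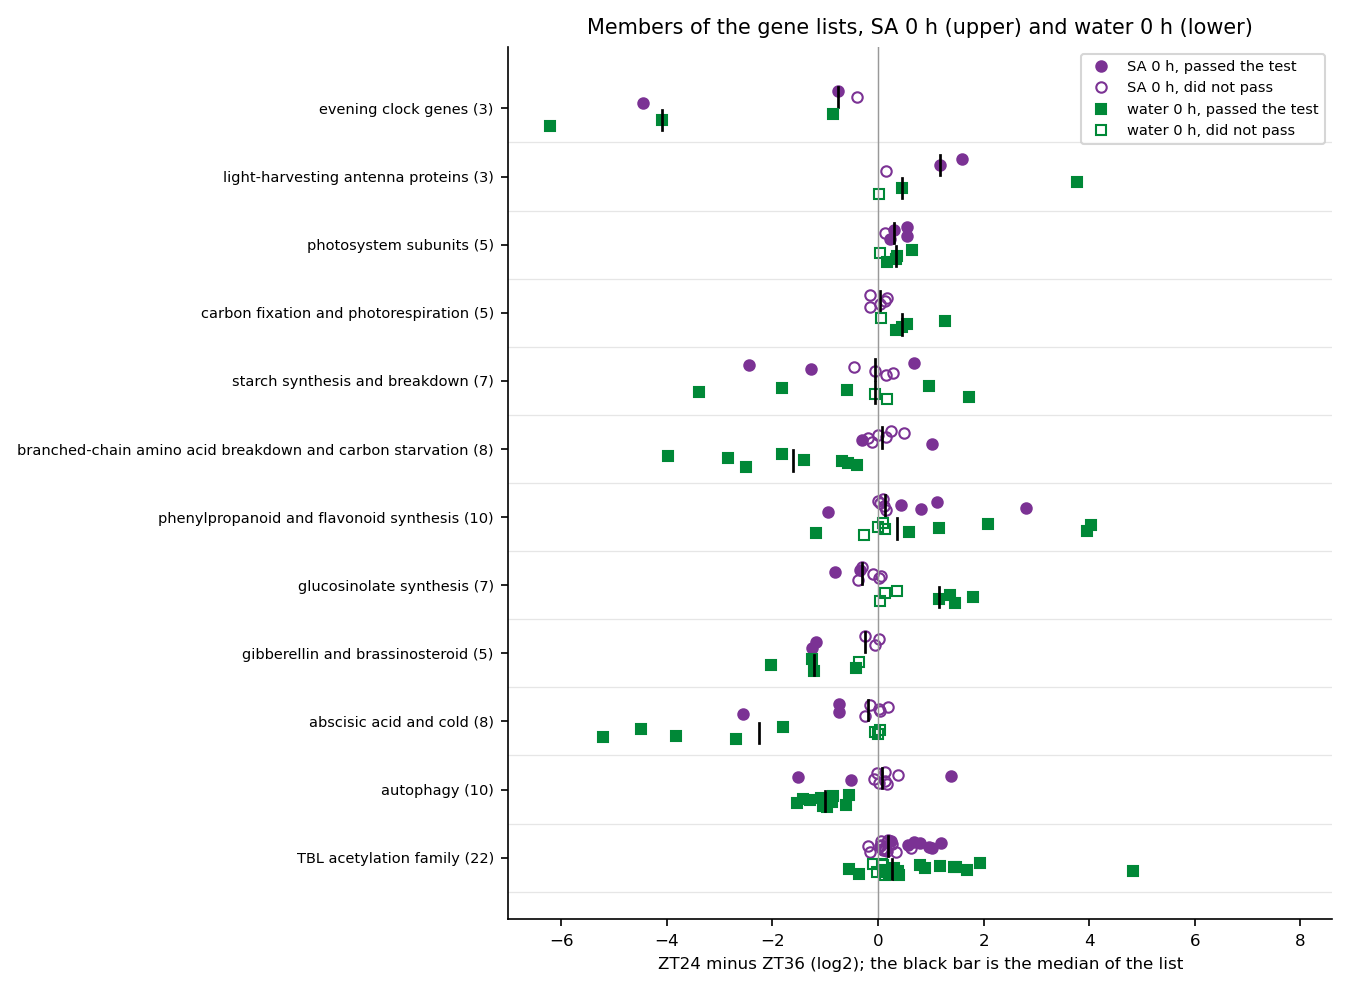
ZT24 minus ZT36 differences (log2, horizontal axis) of the measured members of 12 gene lists, with the number of genes in brackets, in SA 0 h (purple circles) and water 0 h (green squares). Filled symbols passed the test, open ones did not, and black bars are list medians. The autophagy genes lie between -1.51 and 1.39 in SA 0 h and all lie below 0 in water 0 h.

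Among the glucosinolate genes 4 of 7 were higher at ZT24 in water 0 h and 0 in SA 0 h, with 6 differences called. GTR1 was at -0.78, -0.27 and -0.60 at ZT24, against 0.49, 0.45 and -0.13 at ZT36, in SA 0 h, and stood at -0.82 ± 0.18 there and at 1.36 in water 0 h, a difference of -2.18 ± 0.26. GSTU20, which acts in glucosinolate core synthesis, and AOP1 were at -0.10 and -0.38 in SA 0 h, neither called, and at 1.79 and 1.46 in water 0 h. AOP1 was called as lower in SA 0 h under 5 alternatives, among them leaving out ZT36 replicate 1 (-0.53) or ZT24 replicate 2 (-0.53). UGT78D2, a flavonoid glucosyltransferase, was at -0.01 in SA 0 h and 2.09 in water 0 h, and EIN3, the main transcription factor of ethylene signalling, at -0.12 and -1.23. LTI30 was at -0.14 ± 0.68 in SA 0 h and -4.50 in water 0 h. TBL26 was at 0.63 ± 0.32 and not called in SA 0 h, beside 4.83 in water 0 h. By contrast the photosystem list had 4 of 5 higher in both treatments and 0 differences called.

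Some genes changed direction between the treatments. Of the 583 probe sets called in both with opposite signs, 271 were higher and 312 lower at ZT24 in SA 0 h. The difference between the treatments was called for all 583. In a shared fit this follows from 2 called differences of opposite sign, so it adds no support. AT4G27450 was at 1.58, 1.63 and 1.42 at ZT24, against -1.11, -1.22 and -0.45 at ZT36, in SA 0 h. On water 0 h arrays it was at -1.32, -1.76 and -1.52 at ZT24, against 1.5, 2.65 and 2.80 at ZT36, and the 2 time differences were 6.32 ± 0.56 apart (adjusted p = 7.7e-08). AT2G20670 was at 2.31 in SA 0 h and -2.79 in water 0 h, AT1G73480 at 3.36 and -1.19, AT2G32150 at 1.88 and -1.91, AT1G23390 at 2.92 and -0.65, and the P450 gene CYP71B26 at 2.33 and -0.57. In the other direction AT5G59670 was at -1.75 in SA 0 h and 2.24 in water 0 h, and the glycosyltransferase gene UGT71B1 at -0.78 and 0.49. MYBC1, a transcription factor gene, was at 0.74 and -0.77.

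Other genes differed between the times in SA 0 h with little or no difference in water 0 h. Of the 2048 probe sets called in SA 0 h and not in water 0 h, 879 also had a called difference between the treatments. THI2.2 was at 1.66, 1.24 and 1.08 at ZT24, against -1.77, -0.70 and -1.56 at ZT36, in SA 0 h, and differed by 0.26 in water 0 h. The time differences of THI2.2 were apart by 2.41 ± 0.55 (adjusted p = 0.0026). TINY2, an AP2/ERF factor gene, was at -0.13, -0.18 and 0.06 at ZT24, against 0.70, 1.11 and 0.92 at ZT36, in SA 0 h, a fall of 0.99, beside 0.29 in water 0 h.

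**Figure D4:**
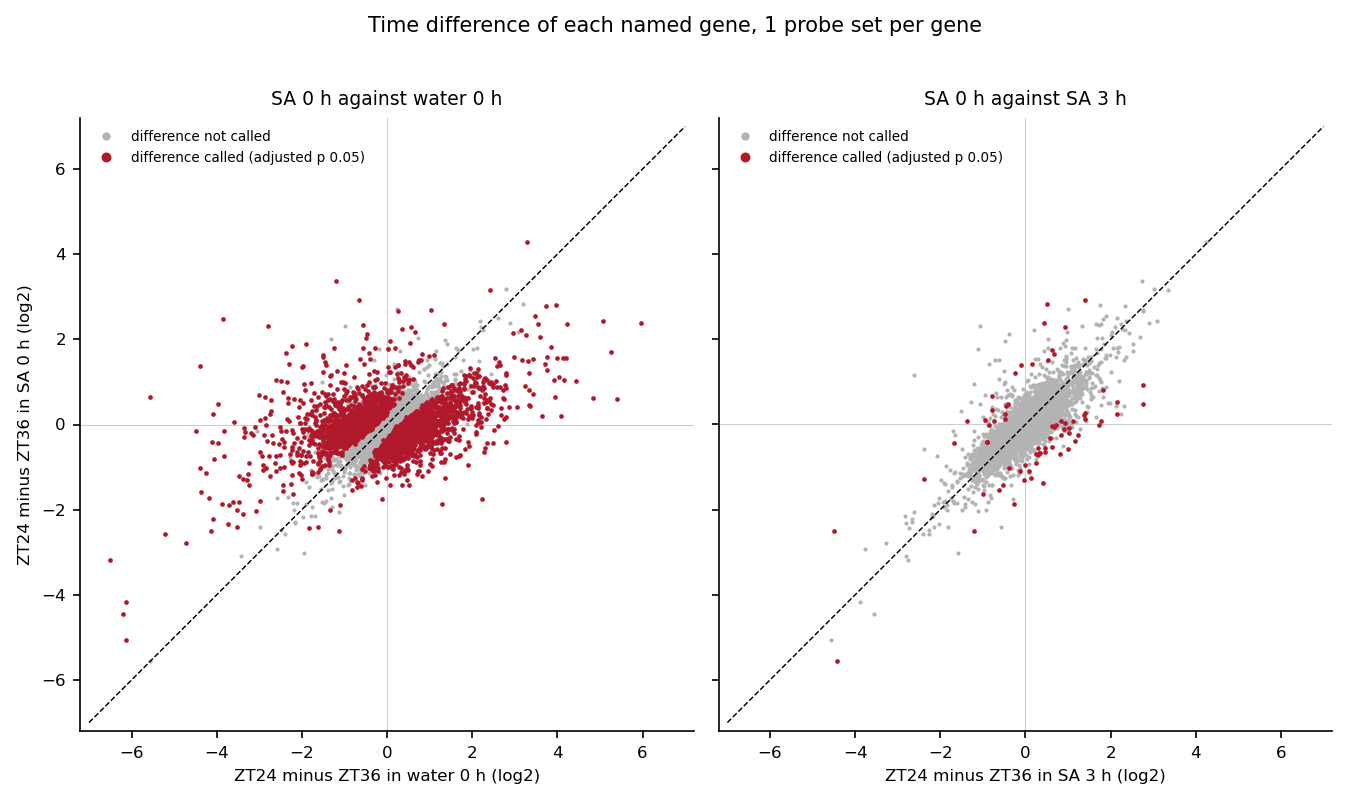
ZT24 minus ZT36 (log2) in SA 0 h (vertical axes) against the same in water 0 h (left panel) and in SA 3 h (right panel) for the 13355 named genes, 1 probe set each. Red points are genes whose 2 time differences differ at an adjusted p of 0.05, and the dashed line marks equal differences. Red points are many off the line on the left and few on the right, as over all probe sets, where 5949 and 136 were called.

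The time difference of SA 0 h was closer to that of SA 3 h. ZT24 and ZT36 differed at 6358 probe sets (28%) in SA 3 h, 3838 of them with the same sign as in SA 0 h, which is 69% of the SA 0 h calls and 60.4% of the SA 3 h calls, and 16 had the opposite sign. The log2 differences correlated at r = 0.821 (rho 0.729) across probe sets, with no array shared. The 2 time differences differed at 136 probe sets (0.598%), 44 positive and 92 negative, and 2253 had an unadjusted p under 0.05. Quantile normalization gave 1017 in place of 136, and leaving out 1 array gave 52 without SA ZT36 3h replicate 2 and 199 without SA ZT24 3h replicate 2. In water 3 h the times differed at 8658 probe sets (38.1%), and the SA 0 h time difference differed from that one at 3843 (16.9%).

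The time differences of GI, MCCA and HYH were -0.41, 0.49 and 1.03 in SA 0 h and -0.67, -0.44 and 0.73 in SA 3 h, and for none of these 3 was the difference between 0 h and 3 h called (adjusted p = 0.47 to 0.85). Among the genes that did, AT1G13650 was at 2.69, 2.60 and 2.5 at ZT24, against 0.03, -0.44 and -0.27 at ZT36, in SA 0 h. Its difference was 2.82 ± 0.14 in SA 0 h, 0.50 in SA 3 h and 3.19 in water 0 h, larger in SA 0 h than in SA 3 h by 2.32 (adjusted p = 2.2e-06). AT2G27420 was likewise at 2.39 in SA 0 h and 0.44 in SA 3 h, and AT1G23390 at 2.92 and 1.41. AT4G16146 fell by 5.56 in SA 0 h and stood at -4.42 in SA 3 h, and AT1G48210 stood at -2.5 and -1.21. DPE1 and AT5G62360 were the reverse, at -1.27 and -2.51 in SA 0 h and -2.38 and -4.50 in SA 3 h. CCR2 was at 0.82 in SA 0 h and 1.83 in SA 3 h, and GRX480 at -0.01 and -0.87.

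**Figure D5:**
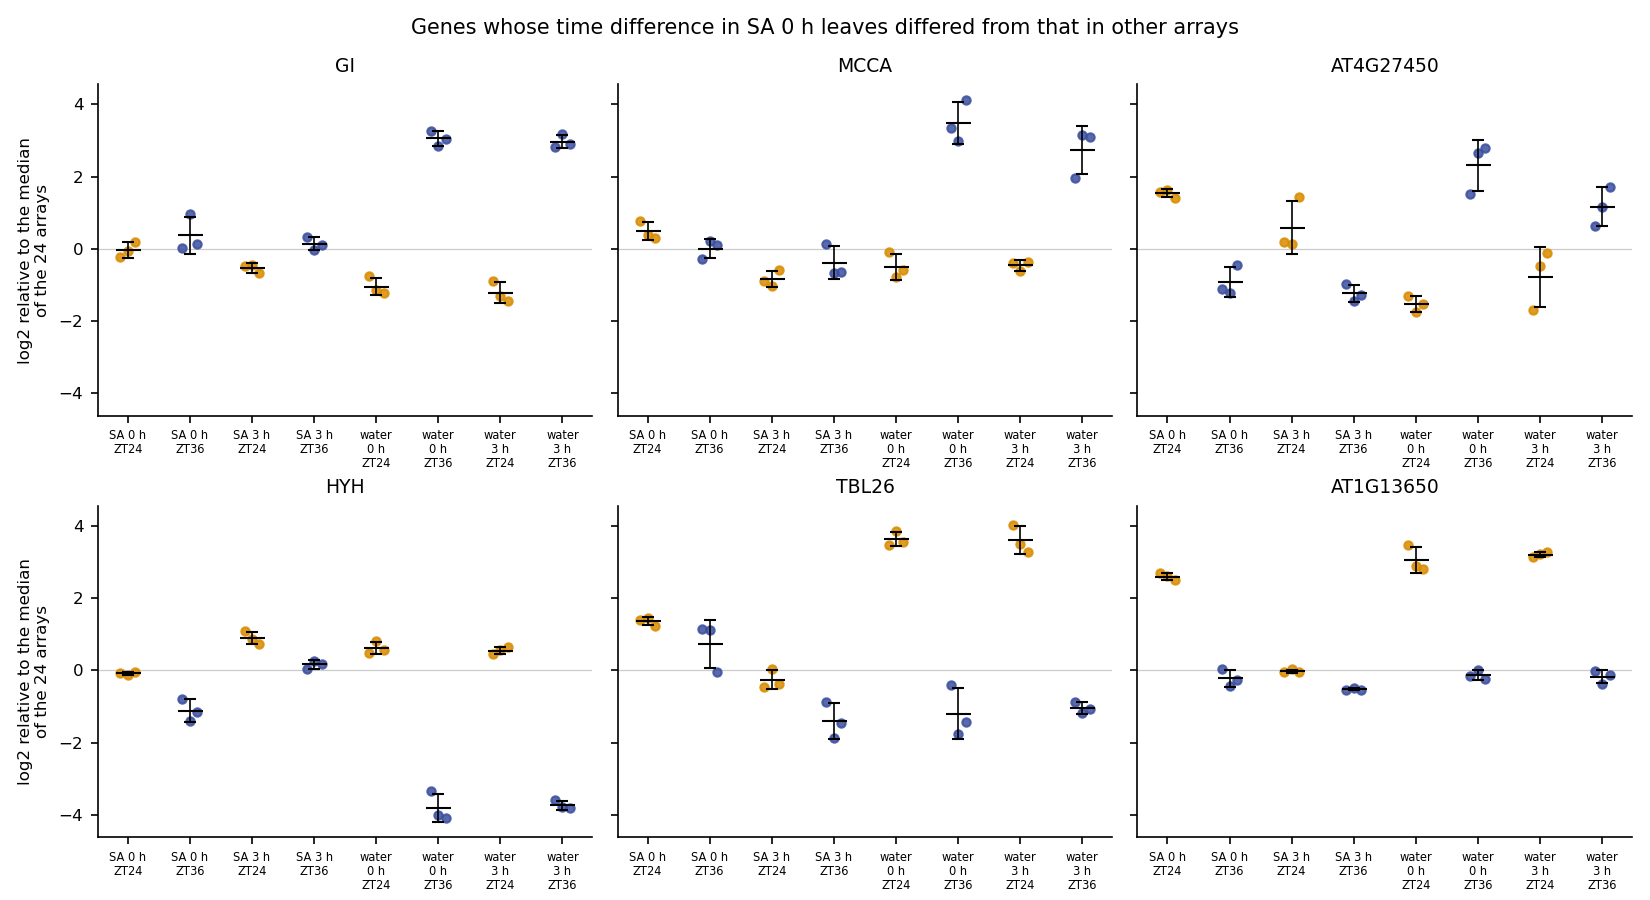
Log2 values relative to the median of the 24 arrays (vertical axis) of 6 genes in all 8 groups, ZT24 in orange and ZT36 in blue, with the mean and SD of 3 arrays. In water 0 h, GI is at 2.85 to 3.27 and MCCA at 2.98 to 4.13 at ZT36, while on the 12 SA arrays GI lies between -0.682 and 0.965 and MCCA between -1.017 and 0.772, and AT1G13650 is high at ZT24 in SA 0 h and water but lies between -0.05 and 0.028 at ZT24 and between -0.555 and -0.493 at ZT36 in SA 3 h.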

How the data were processed

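Total RNA of true leaves was hybridised to 24 Affymetrix arrays, 3 for each of 8 groups given by the labels. The authors deposited log2 values made with RMA, per the submitters' processing notes, which give no version. The log base is that of RMA and is not stated, and the deposited log2 values have a median over the 24 arrays of 0 for every probe set (largest absolute median 5e-07), so absolute signal and its distance from background are unknown here. The number of arrays limits the precision. Of 22810 probe sets, 64 controls were left out and 22746 tested, of which 13513 had 1 gene symbol, 503 several and 8730 none here. Symbols were updated through gene IDs for 13436 of them from the RefSeq table of TAIR10.1, used for names only. Where a gene had several probe sets, 1 was kept by its ID, for 13355 genes.

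Group means were fitted to all 24 arrays with limma 3.58.1 in R 4.3.3 (16 residual and 4.03 prior degrees of freedom), with Benjamini-Hochberg adjustment over all probe sets and a threshold of 0.05. The procedure was tested on simulated data. Tables and plots were made with Python 3.11.15, pandas 2.3.3 and matplotlib 3.10.9. The title numbers run in 3 rounds of 8 samples, and deviations from the group means of the SA 0 h arrays of the same round correlated at -0.0077, 0.048 and -0.022, so these numbers were not taken to pair samples.

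The comparison, the 51 gene lists and the genes named were chosen with earlier results of these data known. Text names followed a rule, with the 14 largest rises and falls taken from called genes whose ZT24 and ZT36 arrays did not overlap. The rule also took the 8 largest differences from water 0 h each way and up to 4 genes of each list. All matched clock, light and SA genes were named too. Last in the rule were genes of opposite sign or little difference in water 0 h, and GI, HYH, COR27, UGT76B1 and GRX480. A further 25 genes outside it, such as IVD, EIN3, TMT1 and PDF1.2, were picked after their values were seen. By identity, 16 list entries were dropped and 1 was added. Promoter motifs are not analysed here. Alternatives covered normalization, array weights, variance settings, filters, a block on the rounds and leaving out each array.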

Additional observations from a re-analysis of the deposited data

Results flagged for a closer look

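The ZT24 minus ZT36 difference of SA 0 h leaves was tested against the same difference in the other groups, by limma. It differed from that of water 0 h at 5949 probe sets, from that of water 3 h at 3843 and from that of SA 3 h at 136.

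Of the genes described, those with a more positive time difference in SA 0 h than in water 0 h, on the log2 scale, included AT4G27450 (6.32), AT3G15450 (6.21), AT2G30600 (5.78), AT2G20670 (5.09), AT1G73480 (4.55), MCCA (4.46), LTI30 (4.35), AT3G10020 (4.33), GI (3.69), COR27 (1.76), AT4G33980 (1.97) and AT1G56300 (3.32). Further ones were COR15B (2.65), COR47 (3.08), DPE1 (2.12), AKINBETA1 (3.52), IVD (2.84), ATG8E (2.81), AT1G23390 (3.58), AT2G32150 (3.79), CYP71B26 (2.90), LHCB4.2 (0.72), MYBC1 (1.51) and THI2.2 (2.41). Those with a more negative time difference in SA 0 h included AT3G15310 (-4.79), TBL26 (-4.20), AT5G59670 (-3.99), AT5G20790 (-3.88), AT2G27420 (-3.57), AT5G42760 (-3.55), AT3G51750 (-3.45), HYH (-3.39), PWD (-0.61) and GTR1 (-2.18). Further ones were UGT78D1 (-2.92), UGT78D2 (-2.09), LHCB4.3 (-2.18), GR1 (-1.36), SWEET2 (-2.13), XTH32 (-1.80), CHIL (-1.16), TINY2 (-1.28) and UGT71B1 (-1.27). The values for COR27, AT4G33980, COR15B and CHIL lost their calls when all arrays were given 1 distribution.

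Against SA 3 h, the time difference of SA 0 h was more positive for AT1G13650 (2.32), AT5G62360 (1.99), AT2G27420 (1.95), AT1G23390 (1.52), DPE1 (1.11) and GRX480 (0.86). It was more negative for AT4G16146 (-1.15), AT1G48210 (-1.29), CCR2 (-1.01) and TMT1 (-0.63). Some of these loci are named by their codes because no other name is given here.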

How the results depend on the processing

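The count of probe sets that differed between ZT24 and ZT36 in SA 0 h leaves was 5563, and 4325 to 5129 without 1 array at a time. It was 829 with a difference of at least 2-fold required and 2953 over 1 probe set per gene, a setting that tests 13355 genes in place of 22746 probe sets. For water 0 h the same settings gave 2347 and 4993, and 8168 to 9144 without 1 array. The difference between SA 0 h and water 0 h gave 1898 and 3195, and 4978 to 6201 without 1 array. That from water 3 h gave 1200 and 1988, and 2942 to 3786. The difference between SA 0 h and SA 3 h was the least stable, at 1017 when arrays were quantile-normalized, 89 in a fit of the 4 groups alone and 52 to 199 without 1 array. It was 82 with the 2-fold requirement and 72 over 1 probe set per gene. With the rounds of title numbers as a replicate block, 5866 probe sets were called in SA 0 h, 6175 for the difference from water 0 h and 156 for that from SA 3 h. The block and the other alternatives were within 1.5 times of the counts reported. Of the 127 named genes called in SA 0 h, 102 were called under every alternative beside the 2-fold requirement, 25 were lost in some, and 0 of the 166 named changed sign among called values. For the difference from water 0 h, 71 of 97 held in all. Quantile normalization, which gives the centred values of all arrays 1 spread, turned the sign of 6 whose difference was called before or after it. These were AT4G28290 (0.81), TMT1 (-0.23), AT1G26665 (-0.96), AT1G17665 (-1.33), COR27 (-0.39) and AT1G07050 (-1.34). After the step TMT1 (adjusted p = 0.35) and COR27 (adjusted p = 0.55) were no longer called. Sign changes without a call were not counted, and the cause was not tested. The split by size after this normalization, given with the results, was computed after seeing the data. With centred values, signal over background cannot be judged for any gene.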

Other observations

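Of 47 UDP-glycosyltransferase genes, 9 were higher and 4 lower at ZT24 in SA 0 h leaves (19.1% and 8.51%, beside 8.99% and 13.4% over all named genes), and the time difference itself differed from that of water 0 h at 19. UGT76C2, a cytokinin glucosyltransferase, rose by 0.74, and UGT73B1, a flavonoid glucosyltransferase, fell by 0.72. Among 5 heat shock genes 2 were higher and 1 lower (40% and 20%), the last being ATERDJ2A, a chaperone partner at the endoplasmic reticulum membrane (-0.64 ± 0.08). The number higher was 1 without ZT24 replicate 1, ZT24 replicate 3, ZT36 replicate 2 or ZT36 replicate 3. Of 15 bZIP genes (6.67% in each direction), HYH was the 1 higher and BZIP17, a membrane-bound stress factor, the 1 lower (-0.43). EIF4A-2, a translation initiation helicase, fell by 0.46 and was at 0.13 in water 0 h. Of 6 histone and cell cycle genes and of 4 sulfate genes, 0 were called by limma in SA 0 h (0 in each list at an unadjusted p under 0.05). Of 4 pectin genes 0 were called by limma, with 2 at an unadjusted p under 0.05, and 1 was higher without replicate 1 of ZT24 or of ZT36.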
